A study of Homo sapiens with 4 samples.

Results

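The platelet-derived growth factor (PDGF) system was examined through its 6 genes, the ligand genes PDGFA, PDGFB, PDGFC and PDGFD and the receptor genes PDGFRA and PDGFRB, chosen by their symbols among the 58365 rows of an FPKM table, in which fragments are divided by transcript length and by the mapped fragments of the library. Each symbol had a single row, and all 6 genes were among the 14909 that passed the filter on low values (a mean of at least 1 FPKM in at least 1 group). RNA came from H1, a widely used line of human embryonic stem cells, at day 8 of hematopoietic differentiation. All cultures received activin A and BMP4 first and then VEGF and bFGF, and for the last 3 days they were kept with SB431542 (SB, 2 libraries) or with DMSO (2 libraries). SB431542 is a small molecule that blocks the type I receptors of TGFβ, activin and nodal. The study describes RNA-seq of CD31-positive cells, a step not mentioned in the sample labels, and H1 is the only cell line measured. The labels do not say whether replicates 1 and 2 were separate cultures, so p-values measure only the spread between these libraries.

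PDGFs are dimeric growth factors that bind receptor tyrosine kinases on neighbouring cells. PDGF-A and PDGF-B are cleaved inside the cell by furin-like convertases, whereas PDGF-C and PDGF-D are secreted with a CUB domain that proteases such as tissue plasminogen activator (for PDGF-C) or urokinase (for PDGF-D) must remove. PDGFRα binds PDGF-A, PDGF-B and PDGF-C and marks early mesoderm, primitive endoderm and mesenchymal progenitors. PDGFRβ binds PDGF-B and PDGF-D and marks pericytes and smooth muscle, which endothelial cells recruit by releasing PDGF-B.

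The sequences around the starts of PDGFRA and PDGFRB are shown so that these genes, whose log2 fold changes were unequal, can be compared. RefSeq windows of 300 bases on GRCh38.p14 were found for 4 of the 6 genes, and those below belong to the upstream and the downstream start of PDGFRA (chr4:54229043-54229342 and chr4:54233710-54234009, both on the + strand) and to PDGFRB (chr5:150155796-150156095, − strand).

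PDGFRA upstream start: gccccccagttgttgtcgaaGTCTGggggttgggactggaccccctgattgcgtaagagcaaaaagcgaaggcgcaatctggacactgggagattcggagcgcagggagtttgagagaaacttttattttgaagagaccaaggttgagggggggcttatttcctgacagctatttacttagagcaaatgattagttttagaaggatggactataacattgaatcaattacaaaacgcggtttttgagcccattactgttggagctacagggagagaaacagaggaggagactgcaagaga

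PDGFRA downstream start: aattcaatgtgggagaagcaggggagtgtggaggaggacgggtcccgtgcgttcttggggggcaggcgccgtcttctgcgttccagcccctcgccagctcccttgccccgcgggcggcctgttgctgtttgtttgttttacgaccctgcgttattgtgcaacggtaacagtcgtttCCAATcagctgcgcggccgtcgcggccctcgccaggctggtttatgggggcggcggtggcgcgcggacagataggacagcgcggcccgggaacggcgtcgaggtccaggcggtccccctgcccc

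PDGFRB: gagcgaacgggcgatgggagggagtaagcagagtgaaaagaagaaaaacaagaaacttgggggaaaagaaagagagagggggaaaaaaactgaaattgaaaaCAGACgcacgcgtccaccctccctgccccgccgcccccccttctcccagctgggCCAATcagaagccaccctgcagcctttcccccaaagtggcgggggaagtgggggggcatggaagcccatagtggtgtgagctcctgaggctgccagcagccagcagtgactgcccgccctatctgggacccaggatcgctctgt

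Capitals mark CAGAC, the short element bound by SMAD proteins, CCAAT, the element bound by NF-Y, and GATAA, the core bound by GATA factors, each searched on both strands and without overlap in these windows. CAGAC was found once in the upstream PDGFRA window and once in the PDGFRB window. CCAAT was found once in the downstream PDGFRA window and once in the PDGFRB window. GATAA was found in none of these (0 matches). Among the windows not shown, that of PDGFA at chr7:520651-520950 held 2 CAGAC and 1 CCAAT. Another window of PDGFA and that of PDGFD held 1 GATAA each. Such short words are common: of 35116 windows of the same length, 45.3% held CAGAC, 34.6% held CCAAT and 22.7% held GATAA.

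PDGFRA had the log2 fold change farthest from 0 among the 6 genes when all 4 libraries were used, with lower values in the SB libraries. PDGFC was farther from 0 without SB replicate 1 (0.86 beside -0.76 for PDGFRA) or without DMSO replicate 2 (0.71 beside -0.63). The DMSO libraries gave 4.03 and 5.59 FPKM, and the SB libraries gave 2.10 and 2.41 FPKM. Both SB libraries lay below both DMSO libraries, and the mean was 4.81 ± 1.10 FPKM with DMSO and 2.25 ± 0.217 FPKM with SB431542 (SD, n = 2 each), which is 53.2% lower. On the scale of log2(FPKM + 1), which understates changes of low values, the log2 fold change was -0.82 (SE 0.22, 95% interval -1.39 to -0.26). The unadjusted p of limma was 0.0139, and the p adjusted over all genes tested was 0.322, so PDGFRA did not pass the threshold of 0.05. Within replicate numbers 1 and 2 the log2 fold change was -0.70 and -0.95. The unadjusted p was above 0.05 without DMSO replicate 2 (0.0608), SB replicate 1 (0.0836) or SB replicate 2 (0.0525). PDGFRA (ENSG00000134853.11, chromosome 4, 54229097 to 54298247, + strand on GRCh38) overlaps the annotated read-through gene AC058822.1, which was listed at no more than 4e-06 FPKM in any library.

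PDGFRB, the receptor of mural cells, showed a smaller difference. It stood at 5.06 and 4.29 FPKM with DMSO and at 4.15 and 4.0 FPKM with SB431542. Both SB libraries lay below both DMSO libraries, although SB replicate 1 lay only narrowly below DMSO replicate 2. The SB mean was 12.8% lower. The log2 fold change was -0.16 (SE 0.18, 95% interval -0.62 to 0.31, limma adjusted p 0.884), and this interval reaches from lower to higher values. The ratio of PDGFRA to PDGFRB was 0.796 and 1.30 in the DMSO libraries and 0.506 and 0.601 in the SB libraries. These ratios did not overlap, and their two-sided exact permutation p was 0.333, the smallest that 2 libraries against 2 can give. The summed FPKM of both receptors was 9.48 ± 0.558 with DMSO and 6.33 ± 0.114 with SB431542 (SD, n = 2 each).

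**Figure D1:**
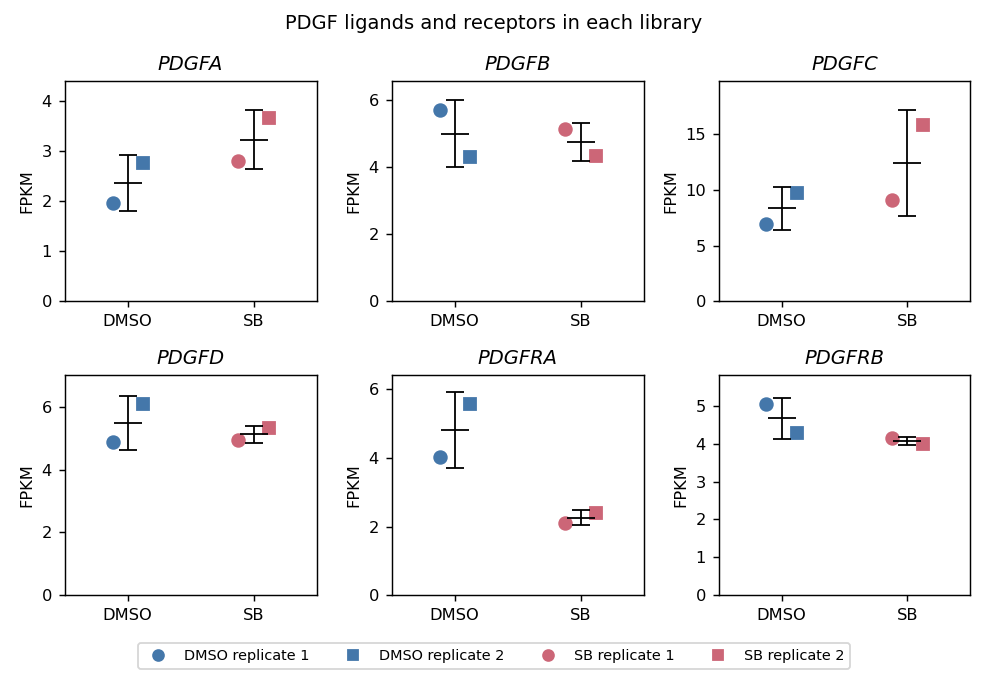
FPKM of the 6 PDGF genes in each library (y axis, starting at 0) for DMSO and SB431542 (x axis), with circles for replicate 1, squares for replicate 2 and black bars for the mean ± SD (n = 2). PDGFRA lies at 4.03 and 5.59 FPKM with DMSO and at 2.10 and 2.41 FPKM with SB431542, while PDGFB, PDGFC and PDGFD overlap between the groups.

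PDGFC, a ligand of PDGFRα, had the highest level of the 6 genes. It stood at 6.95 and 9.71 FPKM with DMSO and at 9.05 and 15.8 FPKM with SB431542, and its means differed by more FPKM than those of PDGFRA. The groups overlapped, since SB replicate 1 lay below DMSO replicate 2. The log2 fold change was 0.49 (SE 0.32, 95% interval -0.33 to 1.32, limma adjusted p 0.752), and it was 0.12 without SB replicate 2. Within replicate numbers 1 and 2 the value was 0.34 and 0.65.

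PDGFA, the other dedicated PDGFRα ligand, had the lowest DMSO level of the 6 genes. It stood at 1.97 and 2.77 FPKM with DMSO and at 2.81 and 3.66 FPKM with SB431542. Both SB libraries lay above both DMSO libraries, although SB replicate 1 exceeded DMSO replicate 2 only narrowly. The log2 fold change was 0.33 (SE 0.23, 95% interval -0.27 to 0.93, limma adjusted p 0.762), with 0.36 and 0.30 within replicate numbers.

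PDGFB and PDGFD, the ligands of PDGFRβ, had log2 fold changes near 0. PDGFB, the endothelial ligand for pericytes, stood at 5.7 and 4.28 FPKM with DMSO and at 5.13 and 4.33 FPKM with SB431542 (log2 fold change -0.058, 95% interval -0.60 to 0.49, limma adjusted p 0.976). PDGFD stood at 4.88 and 6.10 FPKM with DMSO and at 4.94 and 5.32 FPKM with SB431542 (log2 fold change -0.077, 95% interval -0.56 to 0.41, limma adjusted p 0.963). In both genes the SB values lay within the range of the DMSO values. The intervals still allow differences of about 0.5 on the log2 scale in either direction.

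**Figure D2:**
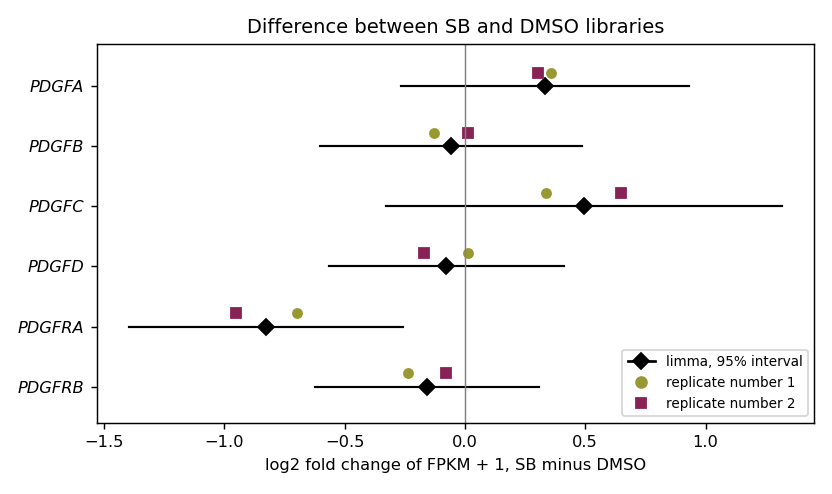
Log2 fold change of FPKM + 1, SB minus DMSO (x axis), for the 6 PDGF genes (y axis), with diamonds and lines for the limma estimate and its 95% interval, and circles and squares for the differences within replicate numbers 1 and 2. The interval of PDGFRA, -1.39 to -0.26, is the only one that does not reach 0.

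Of the 6 genes, 0 passed limma's adjusted p under 0.05, against 0.134% of the 14909 genes tested (20 genes). At an unadjusted p under 0.05, 1 of 6 was lower (PDGFRA; 5.16% of all genes tested) and 0 of 6 were higher (4.80%). Both SB libraries lay below both DMSO libraries for 2 of 6 genes (PDGFRA and PDGFRB), as for 16.0% of all genes, and above them for 1 of 6 (PDGFA), as for 21.5%. The median log2 fold change over all genes tested was 0.040. Levels also moved with the replicate number. PDGFA, PDGFC, PDGFD and PDGFRA were higher in replicate 2 than in replicate 1 of the same group, and PDGFB and PDGFRB were lower, in both groups.

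The other members lie apart in the genome, all on the − strand of GRCh38. PDGFRB (ENSG00000113721.13) spans chromosome 5, 150113837 to 150155872, and PDGFA (ENSG00000197461.13) spans chromosome 7, 497258 to 520296. PDGFB (ENSG00000100311.16) is on chromosome 22, 39223359 to 39244751, where the antisense gene AL031590.1 overlaps it and was listed at no more than 0.282 FPKM. PDGFC (ENSG00000145431.10) is on chromosome 4, 156760454 to 156971394, and PDGFD (ENSG00000170962.12) on chromosome 11, 103907186 to 104164379, where the overlapping genes were listed at no more than 0.3001 FPKM.

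Levels of the 6 genes can be compared because FPKM is scaled to transcript length. With DMSO the order of the mean FPKM was PDGFC (8.33 ± 1.95), PDGFD (5.49 ± 0.865), PDGFB (4.99 ± 1.0), PDGFRA (4.81 ± 1.10), PDGFRB (4.67 ± 0.546) and PDGFA (2.37 ± 0.563; SD, n = 2 each). The values of PDGFD, PDGFB, PDGFRA and PDGFRB overlapped, while PDGFC lay above and PDGFA below all of these in both libraries. With SB431542 the order was PDGFC (12.4 ± 4.77), PDGFD (5.13 ± 0.269), PDGFB (4.73 ± 0.566), PDGFRB (4.08 ± 0.103), PDGFA (3.24 ± 0.596) and PDGFRA (2.25 ± 0.217). PDGFD and PDGFB overlapped, and the other neighbours did not. PDGFRA thus lay above PDGFA in both DMSO libraries and below PDGFA in both SB libraries. Among all genes tested, the mean FPKM of PDGFC was at percentile 50.8, and those of the other 5 genes were between percentiles 21.6 (PDGFA) and 34.2 (PDGFD).

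The make-up of the ligand transcripts varied between libraries. PDGFC made up 35.7% and 42.5% of the summed FPKM of the 4 ligands in the DMSO libraries and 41.3% and 54.3% in the SB libraries. The share of PDGFD was 25.0% and 26.7% with DMSO and 22.5% and 18.3% with SB431542, without overlap between the groups (two-sided exact permutation p 0.333, the smallest possible). The share of PDGFB followed the replicate number, with 29.2% and 23.4% in replicate 1 of DMSO and SB and 18.7% and 14.9% in replicate 2. The share of PDGFA was 10.1% and 12.1% with DMSO and 12.8% and 12.6% with SB431542, likewise without overlap (two-sided exact permutation p 0.333). The summed ligand FPKM was 21.2 ± 2.37 with DMSO and 25.5 ± 5.07 with SB431542 (SD, n = 2 each), and the groups overlapped.

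**Figure D3:**
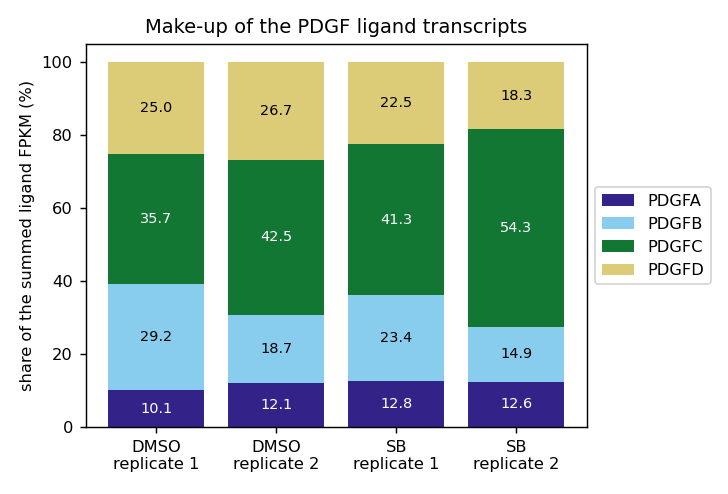
Share of each ligand gene in the summed FPKM of PDGFA, PDGFB, PDGFC and PDGFD (y axis, in %) in the 4 libraries (x axis). PDGFC is the largest share in each library, from 35.7% in DMSO replicate 1 to 54.3% in SB replicate 2.

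Depth was estimated from genes with a single transcript of 3000 to 12000 nt, whose low values step by what 1 fragment is worth. Relative to the deepest library, SB replicate 2, it was 93.2% and 90.1% for the DMSO libraries and 75.4% for SB replicate 1. If each gene was read along its longest annotated transcript, PDGFRA rested on about 595 and 798 fragments with DMSO and 251 and 381 with SB431542. PDGFA rested on the fewest, between 102 and 203 fragments a library. The counting error of a single value was at most 6.31% for PDGFRA and 9.89% for PDGFA, and covers counting only.

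By a fixed measure of likeness, the distance between the 4 log2 values after each gene's own mean was subtracted, PDGFRA was nearest to KLF10 (distance 0.0271), SMURF2 (0.0746) and TXNIP (0.0853) among 8676 protein-coding genes with a mean of at least 5 FPKM. KLF10 is a zinc finger factor known as a TGFβ-inducible early gene, and SMURF2 is a ubiquitin ligase that acts on SMAD proteins and TGFβ receptors. KLF10 stood at 14.1 and 18.3 FPKM with DMSO and at 8.16 and 9.17 FPKM with SB431542, and SMURF2 at 18.4 and 23.9 FPKM and at 10.6 and 11.2 FPKM. TXNIP stood at 152 and 183 FPKM with DMSO and at 89.7 and 99.2 FPKM with SB431542. PDGFRB was nearest to RHOBTB2 (0.0175), PDGFC to RRM2 (0.0618), PDGFD to GIMAP8 (0.0235), PDGFB to THOC5 (0.0208) and PDGFA to DSN1 (0.00387). The next genes were CNIH4 and ABCB8 for PDGFRB, SLC24A1 and COX5A for PDGFC, TMCC3 and TPT1 for PDGFD, CMTM4 and PMM1 for PDGFB and ORMDL1 and FAM133B for PDGFA. With only 4 libraries many genes share such a pattern, and the nearest ones are named as a description.

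Genes that release or assist the ligands differed in both directions. FURIN, which cleaves PDGF-A and PDGF-B, stood at 198 and 121 FPKM with DMSO and at 161 and 103 FPKM with SB431542, and PCSK5 and PCSK7 had log2 fold changes of -0.27 and -0.10. PCSK6, a related convertase, had a log2 fold change of 0.87 (limma unadjusted p 0.0314). PLAT, which encodes tissue plasminogen activator, stood at 3.94 and 3.03 FPKM with DMSO and at 1.22 and 1.24 FPKM with SB431542 (log2 fold change -1.0, limma unadjusted p 0.00543, adjusted p 0.233). PLAU, which encodes urokinase, had a log2 fold change of -0.40 without overlap between the groups.

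Proteins that bind PDGFs or their receptors gave the lowest and the highest values in the group. LRP1, a large endocytic receptor that associates with PDGFRβ, stood at 23.1 and 15.6 FPKM with DMSO and at 6.89 and 5.57 FPKM with SB431542 (log2 fold change -1.47, limma adjusted p 0.167). The neuropilin genes NRP1 and NRP2 had log2 fold changes of -0.44 and 0.92, with limma unadjusted p of 0.0387 and 0.00706. The matrix genes HSPG2 and SPARC, whose products bind growth factors, had log2 fold changes of -1.69 and -0.59, and HSPG2 varied between replicates from 489 to 196 FPKM with DMSO. Of the 13 genes listed, 11 were tested and 0 passed the adjusted threshold, while 2 were higher and 4 lower at an unadjusted p under 0.05 (4.80% and 5.16% of all genes). Their median log2 fold change was -0.40, beside 0.040 over all genes. PDGFRL and ST14 were below the filter.

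Receptor-proximal signaling genes had values on both sides of 0. Both SB libraries lay above both DMSO libraries for 8 of 40 genes (21.5% of all genes) and below them for 2 of 40 (16.0%). All 40 listed genes were tested, 0 passed the adjusted threshold, 2 were higher and 0 lower at an unadjusted p under 0.05 (4.80% and 5.16% of all genes), and the median log2 fold change was 0.063. PIK3CB, a catalytic subunit of phosphoinositide 3-kinase, stood at 29.6 and 28.7 FPKM with DMSO and at 54.0 and 46.8 FPKM with SB431542 (log2 fold change 0.77, limma adjusted p 0.245). PIK3R1 and PLCG1, which bind the activated receptors, had log2 fold changes of 0.39 and -0.36. The adaptor SHC1 and the kinase FYN were the most abundant, with mean levels over all libraries of 397 and 187 FPKM, and had log2 fold changes of -0.063 and -0.22.

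Brakes on these receptors had a median log2 fold change of -0.094, and 0 of 16 passed the adjusted threshold. SPRY4, an inhibitor of receptor tyrosine kinase signaling, was at 13.2 FPKM in each DMSO library against 5.95 and 6.10 FPKM with SB431542 (log2 fold change -1.01, limma unadjusted p 0.00152, adjusted p 0.144). SOCS3 had a log2 fold change of -1.11 (limma adjusted p 0.224), SPRY2 of -0.41 and SPRY1 of -0.39. DUSP6, a phosphatase for ERK, stood at 54.6 and 57.3 FPKM and at 59.9 and 63.3 FPKM. At an unadjusted p under 0.05, 0 were higher (4.80% of all genes) and 3 lower (SPRY4, SOCS3 and SPRY2; 5.16% of all genes).

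Immediate-early and growth factor response genes did not move together. CTGF, a matricellular protein, stood at 4.99 and 6.03 FPKM with DMSO and at 0.594 and 0.543 FPKM with SB431542 (log2 fold change -2.05, limma adjusted p 0.0753). Its relative CYR61 and the hyaluronan synthase HAS2 had log2 fold changes of -1.43 and -0.97 (limma adjusted p 0.139 and 0.200). FOS stood at 99.8 and 87.1 FPKM with DMSO and at 170 and 153 FPKM with SB431542 (log2 fold change 0.78, limma adjusted p 0.245). IER2 had a log2 fold change of 0.0077. Of 22 genes tested, 0 passed the adjusted threshold, 1 was higher and 5 were lower at an unadjusted p under 0.05 (4.80% and 5.16% of all genes), and the median was -0.0018.

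PDGF receptors belong to a family of kinases that also holds KIT, CSF1R and FLT3, with the VEGF receptors as close relatives, and several of these lie side by side in the genome. On chromosome 4, PDGFRA is followed by KIT (54657918 to 54740715) and KDR (55078477 to 55125589). KIT stood at 5.49 and 6.69 FPKM with DMSO and at 7.45 and 7.44 FPKM with SB431542 (log2 fold change 0.26), and KDR at 399 and 440.3 FPKM and at 413 and 434 FPKM (log2 fold change 0.012). PDGFRA thus had the only negative log2 fold change of these 3 neighbours, and the difference between neighbours was not tested.

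On chromosome 5, CSF1R, the receptor of macrophage growth factor, lies on the same strand as PDGFRB and 464 bases beyond its end. CSF1R stood at 2.77 and 1.83 FPKM with DMSO and at 14.4 and 12.5 FPKM with SB431542 (log2 fold change 2.14, limma adjusted p 0.0753), beside -0.16 for PDGFRB. FLT1 and FLT4 had log2 fold changes of -0.66 and -0.69, of which FLT4 varied from 151 to 55.3 FPKM between the DMSO libraries. FLT1 was lower in both SB libraries than in both DMSO libraries (limma unadjusted p 0.0312, adjusted p 0.436). FLT3 was below the filter, at no more than 0.0127 FPKM.

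**Figure D4:**
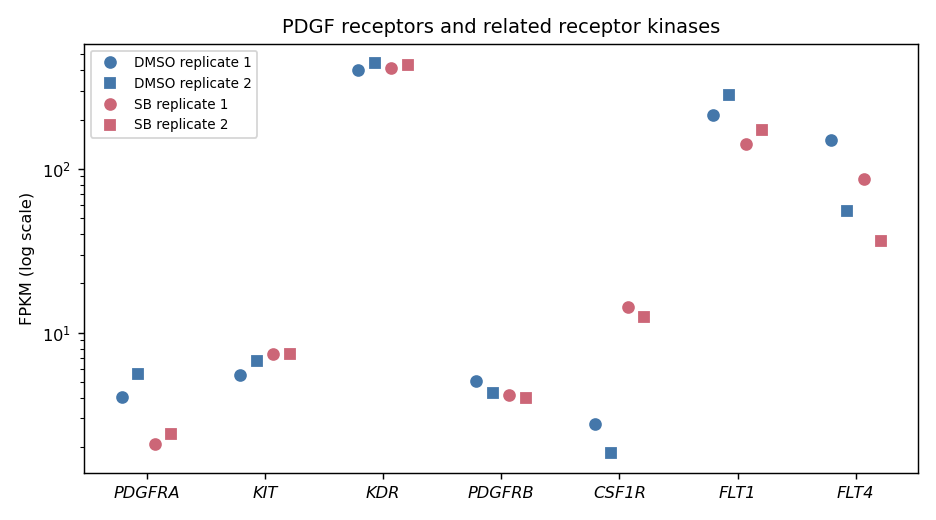
FPKM (y axis, log scale) of PDGFRA, PDGFRB and related receptor kinases (x axis) in each library, in blue for DMSO and red for SB431542, with circles for replicate 1 and squares for replicate 2. PDGFRA, PDGFRB and FLT1 are lower and KIT and CSF1R higher in both SB libraries than in both DMSO libraries, while KDR stays between 399 and 440.3 FPKM.

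Ligands of these related receptors share the cystine knot fold with PDGFs in the case of the VEGF group. PGF, the placental growth factor, stood at 7.83 and 7.06 FPKM with DMSO and at 3.18 and 3.17 FPKM with SB431542 (log2 fold change -1.01, limma adjusted p 0.167). VEGFA had a log2 fold change of -0.80, VEGFC of -0.55 and VEGFB of 0.14. CSF1, KITLG and FLT3LG had log2 fold changes of 0.45, -0.20 and -0.14. Of the 15 related genes listed, 12 were tested, 0 passed the adjusted threshold, 1 was higher (CSF1R) and 3 were lower at an unadjusted p under 0.05 (4.80% and 5.16% of all genes), and the median was -0.17. IL34 and VEGFD were below the filter.

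Markers of the cells known for PDGF receptors are given beside the PDGFRA values. Of 24 mural and mesenchymal markers, 17 were tested, with a median log2 fold change of -0.69. At an unadjusted p under 0.05, 9 were lower and 0 higher (5.16% and 4.80% of all genes), and 0 passed the adjusted threshold. Their summed FPKM was 1102 and 1023 with DMSO and 700 and 606 with SB431542. COL1A1, COL6A3, TAGLN and COL3A1 had log2 fold changes of -2.46, -1.56, -1.70 and -1.03, with limma adjusted p from 0.0646 to 0.200. THY1, one of the most abundant, had -0.25, and RGS5, a pericyte gene, stood at 169 and 271 FPKM with DMSO and at 75.7 and 97.5 FPKM with SB431542. FOXF1 went the other way, with 4.58 and 3.32 FPKM with DMSO and 8.07 and 5.37 FPKM with SB431542 (log2 fold change 0.63, limma adjusted p 0.543), and MCAM had a log2 fold change of -0.043. The smooth muscle and fibroblast genes MYH11, DES and DCN were at no more than 0.894 FPKM in any library, whereas ACTA2 gave 46.0 and 51.8 FPKM, LUM 6.63 and 8.79 FPKM and COL1A2 112 and 123 FPKM with DMSO. These genes were named after their values were seen.

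Markers of endoderm showed the lowest median of the lists, -1.31 over 13 tested genes, with 10 lower and 0 higher at an unadjusted p under 0.05 (5.16% and 4.80% of all genes) and 4 past the adjusted threshold (0.134% of all genes). These 4 were APOA1, AFP, TTR and APOA2, liver and yolk sac secreted proteins, which fell with log2 fold changes of -3.81, -3.55, -3.0 and -2.93 (limma adjusted p 0.0201, 0.0232, 0.0353 and 0.0365). SOX17, an endoderm factor that endothelium also uses, stood at 53.3 and 17.5 FPKM with DMSO and at 49.3 and 17.3 FPKM with SB431542. The summed FPKM of the 14 listed endoderm markers was 401 and 381 with DMSO and 104 and 67.0 with SB431542. Of the early mesoderm markers 6 of 10 were tested, with a median of -0.42, 3 lower and 0 higher at an unadjusted p under 0.05 (5.16% and 4.80% of all genes) and 0 past the adjusted threshold. HAND1 stood at 11.6 and 11.1 FPKM with DMSO and at 2.34 and 1.98 FPKM with SB431542. TBX20 and MIXL1 had log2 fold changes of -0.84 and -0.58, and APLNR, the most abundant, had 0.44. TBX6 and LHX1 had log2 fold changes of -0.27 and -0.16. T, EOMES, MESP1 and MEOX1 were below the filter, with a highest value of 0.554 FPKM (MESP1, DMSO replicate 1). TBX6, LHX1 and the genes below the filter were named after their values were seen. The summed FPKM of this list went the other way than its median, with 130 and 112 for DMSO and 151 and 138 for SB431542. Most of this sum was APLNR, at 109 and 92.3 FPKM with DMSO and at 143 and 131 FPKM with SB431542. The study describes RNA-seq of collected CD31-positive cells, and the labels do not mention this step. The number of mural, endoderm and mesoderm cells in the libraries was not measured. In bulk libraries fewer cells of a type and less RNA per cell cannot be told apart, and the part of these cells in the lower PDGFRA level was not tested.

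Markers of the cells known to make PDGF-B, endothelium and megakaryocytes, had medians near 0 and above 0, respectively. The 12 endothelial markers had a median log2 fold change of -0.090, with 2 higher (CLDN5 and CLEC14A), 1 lower (ROBO4) at an unadjusted p under 0.05 (4.80% and 5.16% of all genes) and 0 past the adjusted threshold. CDH5, EGFL7 and TIE1 had log2 fold changes of -0.28, 0.049 and -0.22. The summed FPKM of the list ranged from 1728 to 2213 and overlapped between the groups, and PECAM1, which encodes CD31, lay between 153 and 197 FPKM. All 12 megakaryocyte markers were higher in both SB libraries (21.5% of all genes), with a median of 1.5, 11 of 12 higher at an unadjusted p under 0.05 (4.80%) and 0 past the adjusted threshold. GP1BB, PPBP, PLEK and SELP, platelet genes, had log2 fold changes of 2.15, 2.83, 1.95 and 1.82 (limma adjusted p 0.0753 to 0.0803), and ITGA2B had 0.63. PF4 stood at 32.6 and 49.7 FPKM with DMSO and at 199 and 322 FPKM with SB431542, beside 4.28 to 5.7 FPKM of PDGFB in all 4 libraries. The summed FPKM of the megakaryocyte markers was 323 and 313 with DMSO and 787 and 879 with SB431542, and that of the hematopoietic markers was 410 and 390 and then 634 and 585. Of the hematopoietic markers 11 of 12 were tested, with a median of 0.80, 6 higher and 0 lower at an unadjusted p under 0.05 (4.80% and 5.16% of all genes) and 0 past the adjusted threshold. CORO1A, VAV1, RUNX1 and SPN had log2 fold changes of 1.57, 0.90, 0.81 and 0.80, and the more abundant LAPTM5 and CD34 had 0.38 and -0.067. PTPRC, the pan-leukocyte CD45 gene, named after its values were seen like PECAM1, was below the filter at no more than 0.202 FPKM. The part of these cells in the PDGFA and PDGFC values was not tested.

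**Figure D5:**
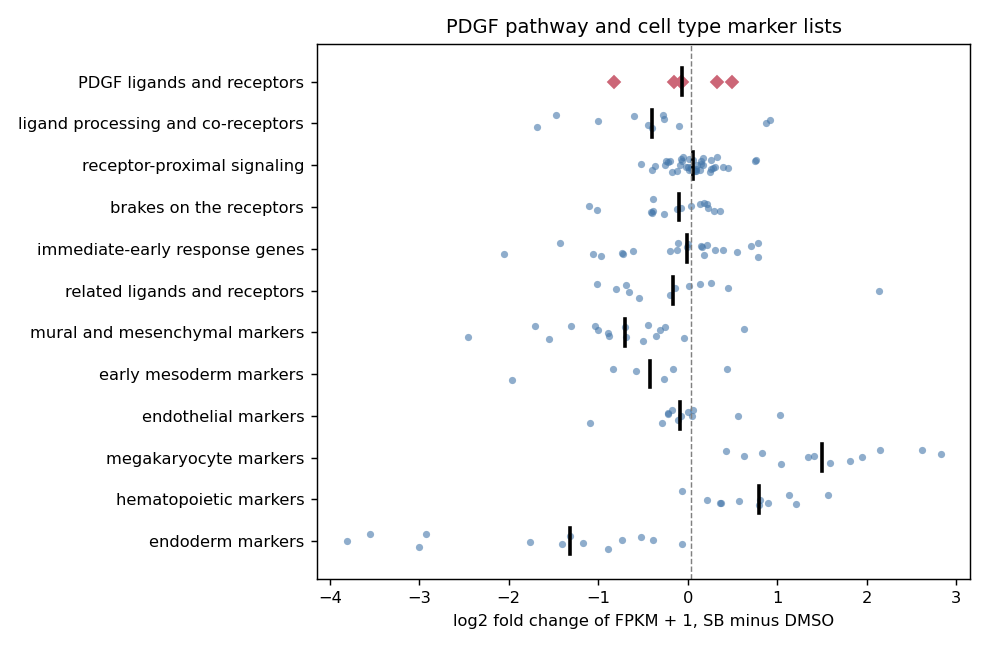
Log2 fold change of FPKM + 1, SB minus DMSO (x axis), of the tested genes in each list (y axis), with 1 point per gene, black bars for medians and a dashed line at the median of all genes tested (0.040). The endoderm (-1.31) and mural and mesenchymal (-0.69) medians lie below the line and the megakaryocyte (1.5) and hematopoietic (0.80) medians above, while the PDGF genes spread from -0.82 (PDGFRA) to 0.49 (PDGFC).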

How the data were processed

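RNA-seq was measured in 4 libraries, grouped by the sample titles into DMSO and SB with replicates 1 and 2. The authors deposited FPKM values, 1 column per library, produced by a service company. The submitters' processing notes name BWA, Bowtie, RSEM and hg19, whereas 55629 of the 58274 identifiers had the position given in GENCODE 29 for GRCh38, so coordinates are given on GRCh38. The roles of the tools, their versions and the use of strand are not given in the sources used here, so overlapping and antisense genes are uncertain.

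Values were taken as log2(FPKM + 1). Genes with a mean of at least 1 FPKM in at least 1 group were tested (14909) with limma 3.58.1 in R 4.3.3 (empirical Bayes with trend, group as the only term), two-sided, with Benjamini-Hochberg adjustment over all of them. The fit was tested on simulated data with independent noise in each library and added changes larger than those of the PDGF genes. That simulation does not show how the fit handles smaller changes or noise shared between libraries. The PDGF genes and the 11 lists, written by hand around the pathway, were chosen with earlier results of these data known. For a symbol with several rows the one with the highest mean FPKM was used. Named genes were the 6 PDGF genes, the 4 genes of each list with the smallest p and the 2 most abundant, any gene of the processing and the related receptor lists, and the 3 nearest genes by likeness, and others are marked as named after their values were seen. Medians and counts describe lists, and no test of a list was made. Promoter windows are those of RefSeq. Alternatives were other filters, a pseudocount of 0.1, upper-quartile and quantile scaling, the replicate number as a block and the removal of each library. A gene of the signaling list is not reported here.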

Additional observations from a re-analysis of the deposited data

How the results depend on the processing

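PDGFRA was negative under all 9 alternatives that could be run for it (log2 fold change -1.05 to -0.63, limma adjusted p 0.0384 to 0.924), with an unadjusted p under 0.05 in 6 of the 9. PDGFA and PDGFC were positive and PDGFRB negative under every alternative run for each. PDGFA, PDGFRA and PDGFRB were not tested under the stricter filter, which asked for 5 FPKM in 2 libraries.

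The replicate number as a block changed 1 call among the PDGF genes. With it PDGFRA had the same log2 fold change of -0.825 and a limma adjusted p of 0.0384, so that 1 of the 6 genes passed, beside 1564 genes (10.5%) of all tested. PDGFC had a limma unadjusted p of 0.0103 and an adjusted p of 0.0707 with the block, and did not pass. The labels do not say that a number marks a shared culture or day. With 2 pairs, the deviations of same-numbered libraries from their group means correlated at 0.528 over genes, which are not independent.

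The number of genes past the adjusted threshold was 20, and it was 0 without a filter (2739 at an unadjusted p under 0.05), 31 with quantile normalization, and between 0 and 14 when 1 library was left out. It was 0 without DMSO replicate 1 (1168 at an unadjusted p under 0.05), 10 without SB replicate 1 and 9 without SB replicate 2. Left-out libraries moved the log2 fold change of PDGFB between -0.23 and 0.11, with a positive value without DMSO replicate 1 or SB replicate 2 (0.043). They moved PDGFD between -0.21 and 0.059, positive without DMSO replicate 2. PDGFC ranged from 0.12 to 0.86 and PDGFA from 0.16 to 0.50. The cause was not tested.

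The medians of lists moved as follows. Without the filter they were -0.018 (related ligands and receptors), -0.47 (mural and mesenchymal), -0.18 (early mesoderm) and 0.69 (hematopoietic). With a pseudocount of 0.1 they were -1.04 (mural and mesenchymal), -0.72 (early mesoderm), 1.86 (megakaryocyte) and -2.14 (endoderm). Under the stricter filter they were -0.76 (early mesoderm), 1.59 (megakaryocyte) and -2.35 (endoderm). With 1 library left out they ranged from 0.046 to 0.16 (receptor-proximal), -0.16 to -0.014 (related), -0.91 to -0.50 (mural and mesenchymal), -0.69 to -0.39 (early mesoderm), 1.46 to 1.57 (megakaryocyte), 0.61 to 0.70 (hematopoietic) and -1.58 to -1.20 (endoderm). The immediate-early median ranged from -0.19 to 0.17 and the endothelial median from -0.23 to 0.024, and both changed sign.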
